A study of Oryctolagus cuniculus with 16 samples.

Results

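Laminins, integrins and the proteins that link them to basement membranes were followed as RNA in the vaginal wall of rabbits with and without a graft. The genes were chosen by symbol alone: laminin alpha, beta and gamma chains, integrin alpha and beta subunits, and the linkers NID1, NID2, HSPG2, AGRN, TINAGL1, DAG1 and ITGB1BP2. This gave 38 of the 13001 named genes: 8 laminin chains, 25 integrin subunits, 3 basement membrane linkers and 2 linkers on the cell side. All 38 were among the 10942 genes that were tested after a filter on low counts. Other genes that the symbols allow, such as NID1 and AGRN, were not analysed here.

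Poly(A) RNA of 16 vaginal samples from juvenile female New Zealand White rabbits (17 to 19 weeks old) was sequenced in a study that set autologous micrografting beside acellular grafts after vaginal surgery. Unoperated controls gave 6 libraries (animals 2, 9, 16, 24, 25 and 29) and sham-operated animals gave 3 (11, 12 and 14). The acellular graft, without tissue particles, gave 3 (6, 8 and 10), and the PLATE graft, with tissue particles, gave 4 (1, 5, 9 and 13). Tissue of the acellular and PLATE groups was taken at 10 mm from the graft zone. No distance is stated for sham or control, so sampling site and graft cannot be told apart in comparisons with those groups. Animal number 9 stands in control and in PLATE, and whether this is 1 animal is not stated.

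Total counts ranged from 20992063 to 30695000, and counts on named genes from 15348880 to 23236339. The 38 genes together took 0.477 to 0.836% of the named-gene counts. This share was 0.478 to 0.514% in acellular, 0.510 to 0.639% in PLATE and 0.662 to 0.766% in sham, while controls spanned the whole range. Smooth muscle, columnar epithelium, fibroblast, endothelial and leukocyte markers had counts in all 4 groups. Control 2, control 9 and PLATE 1 stood apart. Control 2 had the most smooth muscle RNA (158200 CPM, counts scaled to the library, summed over 7 markers) and the least columnar epithelium RNA (16.65 CPM over 7 markers). Control 9 had the least smooth muscle RNA (9376 CPM) and the most columnar epithelium RNA (1577 CPM). PLATE 1 had the most leukocyte RNA (10140 CPM over 11 markers, against at most 2127 CPM in every other library). In whole tissue, fewer cells of a type and less RNA per cell cannot be told apart.

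Laminins are trimers of an alpha, a beta and a gamma chain that assemble into the sheet of a basement membrane. Nidogens and the heparan sulfate proteoglycan perlecan (HSPG2) tie that sheet to the collagen IV network. Integrins, pairs of an alpha and a beta subunit, and dystroglycan anchor cells to it. In the vaginal wall, basement membranes lie under the epithelium and around smooth muscle cells, vessels and nerves, while a separate set of integrins serves the adhesion and traffic of leukocytes.

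**Figure D1:**
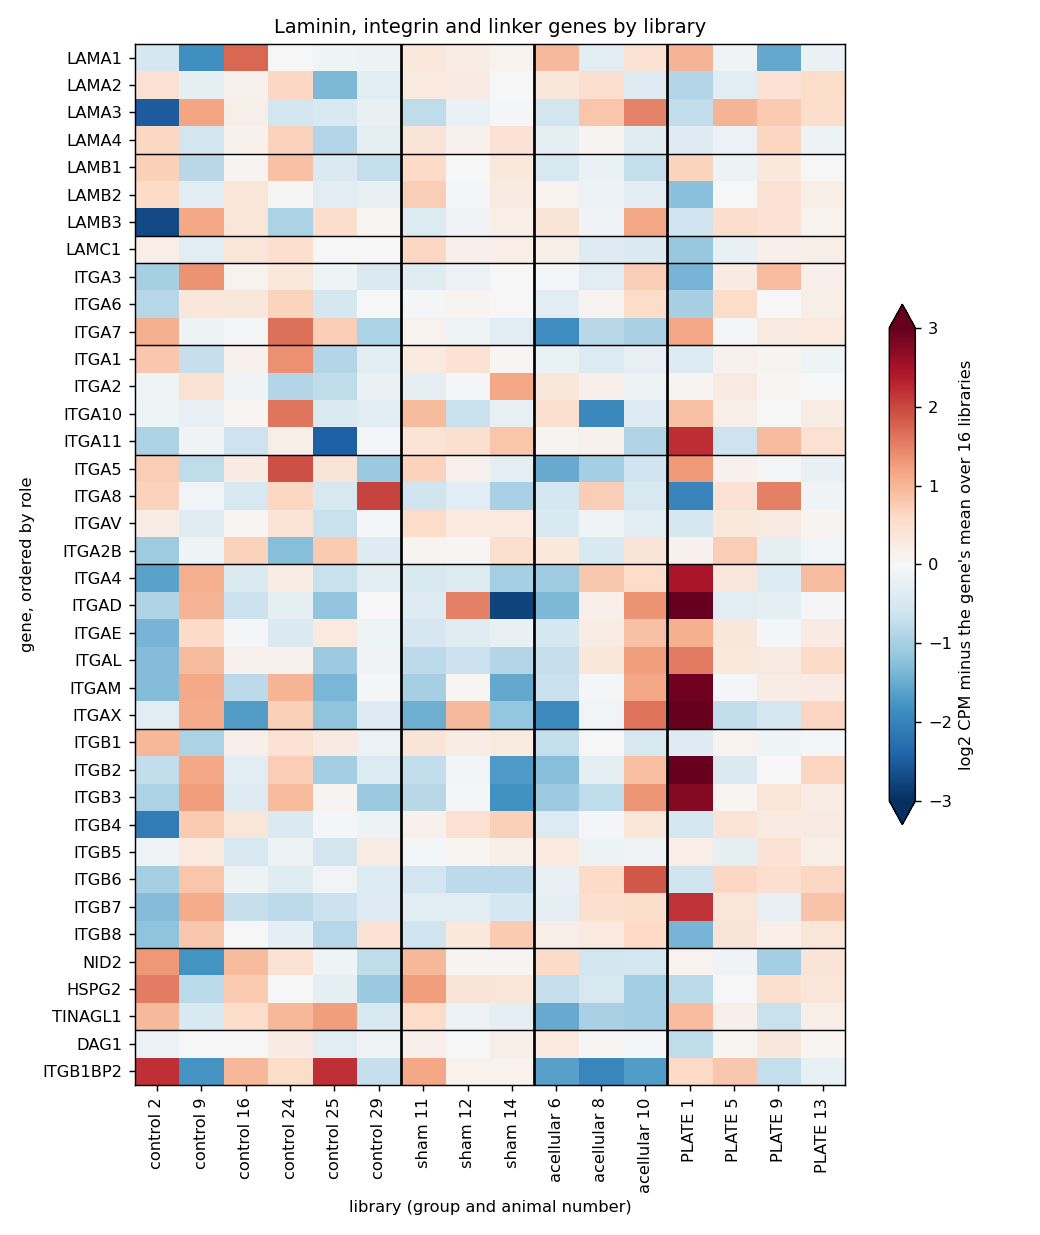
Levels of the 38 genes (rows, ordered by role, lines between roles) in the 16 libraries (columns, by group and animal number), as log2 CPM minus the gene's mean over all libraries. PLATE 1 holds the highest value for 10 genes, 6 of them the leukocyte alpha subunits, and the 3 acellular libraries are blue (below the mean) for ITGB1BP2, TINAGL1, ITGA7 and ITGA5.

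Values below are CPM, counts relative to the total on the 10942 genes tested after trimmed-mean (TMM) scaling. A log2 fold change (± standard error) of 1 is a doubling. CPM was not divided by transcript length, so levels are compared between libraries and not between genes. The test was the quasi-likelihood F test of edgeR with Benjamini-Hochberg adjustment over all 10942 genes. With a threshold of 0.05 on the adjusted p, edgeR called 0 of the 38 genes, and 0 of all genes tested (percent called 0), in each of the 6 pairs of groups, in the operated groups against control, and in the joint test of the 4 groups. In that joint test 7 of the 38 had an unadjusted p under 0.05 (TINAGL1, ITGB1BP2, ITGA7, ITGB6, ITGB2, ITGA11 and ITGAX), or 18.4%, against 4.8% of all genes. The adjusted p of these 7 was 0.901. The comparisons therefore give values and their spread, and a difference that did not pass is not shown to be absent.

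Among laminin alpha chains, LAMA3, LAMA2 and LAMA4 showed different patterns across libraries. LAMA3, the alpha chain of the anchoring laminin beneath epithelia, ranged from 17.2 CPM in control 2 to 271 CPM in acellular 10. Its group means were 94.5 ± 68.7 CPM in control (SD, n = 6), 78.5 ± 18.9 in sham (n = 3), 170.1 ± 102.6 in acellular (n = 3) and 139.8 ± 59.6 in PLATE (n = 4). All 4 groups overlapped: acellular 6 and PLATE 1 lay within the sham range, and the other acellular and PLATE libraries lay above it. LAMA2, the chain of muscle and nerve laminin, spanned 50.97 to 199 CPM with both ends among the controls. LAMA4, the chain of vessel and muscle laminin, spanned 292 to 869 CPM, again with both ends among the controls. LAMA1, best known from embryonic basement membranes, stayed between 0.400 and 5.83 CPM.

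Among the beta and gamma chains the epithelial chain LAMB3 varied most across libraries. LAMB1 averaged 207 ± 36.9 CPM in acellular, 351 ± 68.9 in sham, 306 ± 156 in control and 338 ± 88.4 in PLATE, and its 3 acellular libraries (202, 246 and 172 CPM) lay below all 3 sham libraries (419.9, 282 and 351 CPM). LAMB2, the beta chain of muscle, vessel and nerve laminins, was lowest in PLATE 1 (106.3 CPM) and highest in sham 11 (419 CPM). LAMC1, the gamma chain of most laminins, was also lowest in PLATE 1 (138 CPM) and highest in sham 11 (469 CPM). LAMB3, the beta partner of LAMA3, ranged from 7.38 CPM in control 2 to 108.9 CPM in acellular 10. Over the 8 laminin chains the median log2 fold change lay between -0.24 (acellular against sham) and 0.19 (sham against control). With all 16 libraries none of the 8 had an unadjusted edgeR p under 0.05 in any pair of groups. Other settings gave some. Without control 9, LAMA3 did in acellular against control (1.29; 10.1% of all genes did). Without control 2 and PLATE 1 it did against sham, in acellular (1.12, 9.39%) and PLATE (1.08, 3.67%). Without control 2, control 9 and PLATE 1, LAMA3, LAMB1 and LAMC1 did in acellular against sham (12.5%). None passed the adjusted threshold.

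Against unoperated control, 4 genes were lower in acellular libraries with an unadjusted p under 0.05 in edgeR: TINAGL1, ITGB1BP2, ITGA7 and ITGA5. They were picked by p in these data and differ in role. Of the 38 genes, 17 were lower and 21 higher, with LAMA2, LAMA3 and DAG1 among the higher ones. The share lower was 44.7%, against 54.2% of all genes. TINAGL1, a matricellular protein of basement membranes, stood at 19.6, 28.4 and 27.4 CPM in acellular 6, 8 and 10, and in the controls at 40.8 CPM (lowest), 96.1 (median) and 133 (highest). Every acellular library lay below every control, and sham (82.5, 49.6 and 45.6 CPM) and PLATE (105.9, 62.3, 35.5 and 63.6 CPM) lay above every acellular library too. The log2 fold change against control was -1.78 ± 0.43 (edgeR adjusted p = 0.827).

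ITGB1BP2, melusin, binds the tail of the beta 1 integrin in striated muscle. It stood at 2.64, 2.08 and 2.56 CPM in acellular 6, 8 and 10 (31 to 58 counts), and in the controls at 2.36 (lowest), 14.5 (median) and 38.3 CPM (highest). Of the controls only control 9 lay within the acellular range, and control 2 and control 25 were highest. Sham was at 18.7, 9.00 and 9.02 CPM and PLATE at 12.7, 14.7, 5.02 and 7.13 CPM, all above the 3 acellular libraries. Against control the log2 fold change was -2.94 ± 0.78 (edgeR adjusted p = 0.827).

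ITGA7, the muscle subunit that pairs with beta 1 to bind laminin, stood at 5.66, 11.7 and 10.5 CPM in acellular 6, 8 and 10. The controls ran from 10.8 CPM (control 29) over a median of 27.4 to 65.8 CPM (control 24), the sham libraries were at 22.3, 19.0 and 16.4 CPM, and the PLATE libraries at 46.8, 20.3, 25.0 and 25.6 CPM. Acellular lay below every sham and PLATE library, and among the controls overlapped with control 29 alone. The log2 fold change against control was -1.80 ± 0.50 (edgeR adjusted p = 0.827). In the RefSeq annotation of the rabbit assembly mOryCun1.1 ITGA7 overlaps TMT1B, and since the strand setting of the counting is not stated, reads of these genes may not be separated.

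ITGA5, the alpha subunit of the fibronectin receptor, was at 70.2, 98.0 and 132 CPM in acellular 6, 8 and 10. In the controls it was at 92.2 CPM (lowest), 249 (median) and 760.1 (highest, control 24), so the groups overlapped. The log2 fold change was -1.58 ± 0.58 (edgeR adjusted p = 0.827), and -1.06 without control 24. ITGB6, an epithelial partner of alpha V, went the other way, at 4.42, 7.73 and 18.9 CPM in acellular 6, 8 and 10 against 2.52 to 9.28 CPM in the controls. Its log2 fold change of 1.09 ± 0.44 was 0.32 without acellular 10.

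In all, 5 of 38 genes (4 lower and 1 higher) had an unadjusted p under 0.05 in edgeR between acellular and control, against 6% of all genes tested (4.22% lower and 1.77% higher). The count was 9 without control 9 (10.1% of all genes), 8 without control 2, control 9 and PLATE 1 (11.8%) and 8 by voom (15.2%). Groups did not overlap for 1 of the 38, TINAGL1, against 1.73% of all genes. By DESeq2 2 of the 38 passed, TINAGL1 (adjusted p = 0.0307) and ITGB1BP2 (adjusted p = 0.0208), against 0.0921% of all genes, and by limma voom 0. With DESeq2's low-count filtering set for 0.05 neither gene received an adjusted p. TINAGL1 was at 19.6 CPM or more in every library, so this filtering was not limited to genes at the lowest counts. The median log2 fold change over the 38 was 0.06, against -0.03 over all genes. Leukocyte alpha subunits were higher in 6 of 6 (45.8% of all genes were higher), while ITGB2, a beta partner of leukocyte alphas, was not. These alpha subunits summed to 35.9 to 132.6 CPM in acellular, highest in acellular 10, and overlapped with the controls (25.8 to 124.3 CPM). The 3 basement membrane linkers were lower in 3 of 3 (54.2% of all genes), HSPG2 at -1.03 and NID2 at -0.40 beside TINAGL1. Of these alphas and linkers only TINAGL1 had an unadjusted p under 0.05 in edgeR.

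Muscle and fibroblast markers differed between these libraries too. Summed over 7 smooth muscle markers, acellular libraries held 13590 to 18610 CPM, sham 37930 to 64110, PLATE 29610 to 48560 and controls 9376 to 158200 CPM, and none of the 7 was at 0 throughout a group. Control 9, with less smooth muscle RNA than any acellular library, lay within the acellular range for ITGB1BP2 and ITGA5 (117 CPM). For TINAGL1 (40.8 CPM) and ITGA7 (18.7 CPM) it lay above all 3 acellular libraries. Summed over 6 skeletal muscle markers, acellular libraries held 171 to 229 CPM, within the 100 to 586 CPM of the controls and overlapping with sham (196 to 280) and PLATE (148 to 236), and MYH1 was at 0 throughout sham, acellular and PLATE. Control 2 had the highest skeletal muscle sum (586 CPM) and control 25 the next (564 CPM), and both were also highest for ITGB1BP2. This sum rested on few markers. MYBPC1 ranged from 95.4 CPM (control 9) to 545 CPM (control 29). CKM reached 231 CPM in control 2 and TNNT3 66.5 CPM in control 25. The myosins MYH1 and MYH7 were at most 0.104 and 2.64 CPM in any library. Summed over 10 fibroblast markers, none at 0 in any library, acellular libraries held 12500 to 20290 CPM, sham 26390 to 54690, PLATE 25870 to 50110 and controls 18180 to 48930 CPM. Acellular thus lay below every sham and PLATE library for smooth muscle and for fibroblast markers and overlapped with control for both. The part of muscle and fibroblast content in the values of the 38 genes was not tested.

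**Figure D2:**
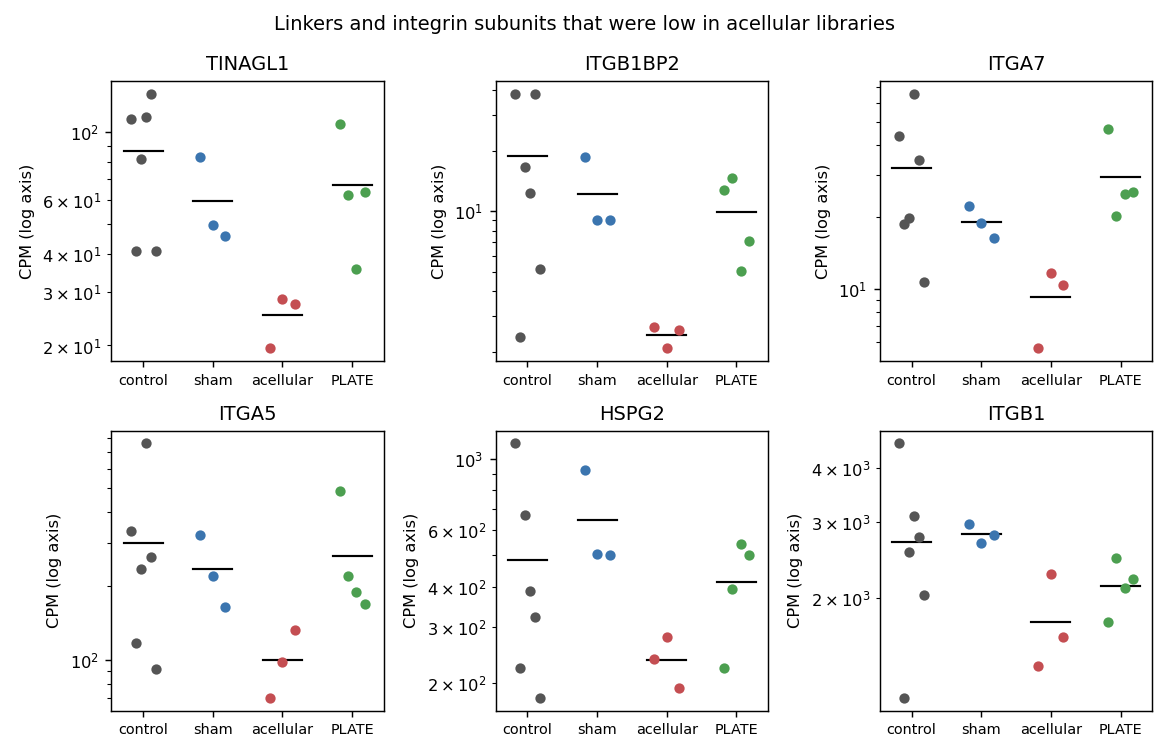
CPM on log axes for TINAGL1, ITGB1BP2, ITGA7, ITGA5, HSPG2 and ITGB1 by group, with 1 point per library and the group mean as a horizontal line. For TINAGL1 the 3 acellular points (19.6 to 28.4 CPM) lie below all 13 others, while for ITGB1BP2 control 9 at 2.36 CPM lies among them.

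Against sham, acellular libraries had lower values in every library for TINAGL1, ITGB1BP2, HSPG2 and ITGAV, while the other linkers overlapped (DAG1 at -0.0040 and NID2 at -0.52). HSPG2, perlecan, was at 238, 279 and 193 CPM in acellular 6, 8 and 10 and at 926, 506.5 and 503 CPM in sham 11, 12 and 14. The groups did not overlap, and the log2 fold change was -1.45 ± 0.57 (edgeR adjusted p = 0.902). ITGAV, the subunit of vitronectin and latent TGF-beta receptors, was at 63.3, 80.8 and 69.5 CPM against 127.5, 106.5 and 106.4 CPM (-0.67 ± 0.26), also without overlap. TINAGL1 had a log2 fold change of -1.24 ± 0.46 and ITGB1BP2 one of -2.32 ± 0.81, with adjusted p = 0.902 for each in edgeR. ITGB1, the shared beta subunit of most matrix integrins, was at 1391, 2273 and 1626 CPM in acellular and 2970, 2678 and 2801 CPM in sham, without overlap (-0.68 ± 0.37, edgeR adjusted p = 0.902). The smooth muscle and fibroblast sums given above were lower in all 3 acellular libraries than in all 3 sham libraries as well.

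ITGB6 had the smallest p of the 38 between acellular and sham. Its sham libraries were at 3.40, 2.92 and 2.92 CPM, all below the 3 acellular ones, and the log2 fold change was 1.75 ± 0.54 (edgeR adjusted p = 0.902). By limma voom it passed just under the threshold (adjusted p = 0.0495). Without acellular 10, the library at 18.9 CPM, the log2 fold change was 0.98. Acellular 10 also had the most RNA of columnar epithelium among the acellular libraries (1419 CPM over 7 markers, against 536 and 722). The part of epithelial content in the ITGB6 value was not tested. ITGAL, the alpha subunit of the lymphocyte integrin LFA-1, was at 11.1, 22.7 and 43.1 CPM in acellular against 10.4, 11.4 and 9.76 CPM in sham (1.28 ± 0.56, and 0.68 without acellular 10). The 11 leukocyte markers summed to 571, 1006 and 2127 CPM in acellular 6, 8 and 10 and to 404 to 986 CPM in sham, so acellular 10 was highest for them too. Their part in the ITGAL value was not tested.

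Between acellular and sham 6 of 38 genes (4 lower and 2 higher) had an unadjusted p under 0.05 in edgeR, against 4.87% of all genes (3.11% lower and 1.76% higher). The count depended on the libraries and the fit. It was 2 without sham 11 (2% of all genes) and 2 without acellular 10 (2.89%), 7 without control 2 and PLATE 1 (9.39%), and 13 without control 2, control 9 and PLATE 1 (12.5%). It was 16 with only the groups compared in the fit (12.9%) and 15 by voom (24.2%). ITGB1BP2 was among the genes in each of these 6 settings. Groups did not overlap for 13 of the 38, of which 11 were lower, against 18.3% of all genes and 10.5% in that direction. The 11 were TINAGL1, ITGB1BP2, HSPG2, ITGAV, ITGB1, ITGA1, ITGA5, ITGA7, ITGA11, LAMA4 and LAMB1. DESeq2 called 0 of the 38 and voom 1, ITGB6, against 0.00921 and 0.658% of all genes. The median over the 38 was -0.02, beside 0.02 over all genes.

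Between the 2 graft types, ITGA7, TINAGL1, ITGB1BP2 and ITGA5 had higher values in PLATE than in acellular. ITGA7 had a log2 fold change of 1.67 ± 0.52 (29.4 ± 11.8 against 9.27 ± 3.19 CPM; edgeR adjusted p = 0.875) and TINAGL1 one of 1.41 ± 0.44 (66.8 ± 29.1 against 25.1 ± 4.83 CPM; edgeR adjusted p = 0.875). ITGB1BP2 stood at 2.02 ± 0.78 and ITGA5 at 1.41 ± 0.61. For each of these 4 genes every PLATE library was above every acellular library. Acellular libraries are shared by this comparison and by those with control and sham, so the low acellular values enter all of them. Without PLATE 1 the log2 fold change was 1.35 for ITGA7, 1.10 for TINAGL1, 1.88 for ITGB1BP2 and 0.95 for ITGA5. The PLATE values themselves lay within the control range for all 4 genes, except TINAGL1 in PLATE 9, which lay below it.

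Of the 38 genes, 4 had an unadjusted p under 0.05 between PLATE and acellular in edgeR, all higher, against 4.71% of all genes, and 4 without control 2 and PLATE 1 (2.24%), where HSPG2 stood in place of ITGA5. The count was 2 without acellular 8 (ITGA7 and TINAGL1, 2.36% of all genes), 7 without acellular 10 (7.11%), 7 by DESeq2 (5.89%) and 7 by voom (10.6%). Groups did not overlap for 5, all higher, against 4.97% of all genes and 3.27% in that direction; the fifth was LAMB1. DESeq2 and voom called 0 of the 38, and 0.00921 and 0% of all genes. Of the 38, 28 were higher in PLATE, a share of 73.7% beside 52.4% of all genes, and the median log2 fold change was 0.25 beside 0.02. Without PLATE 1 that median was 0.10.

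**Figure D3:**
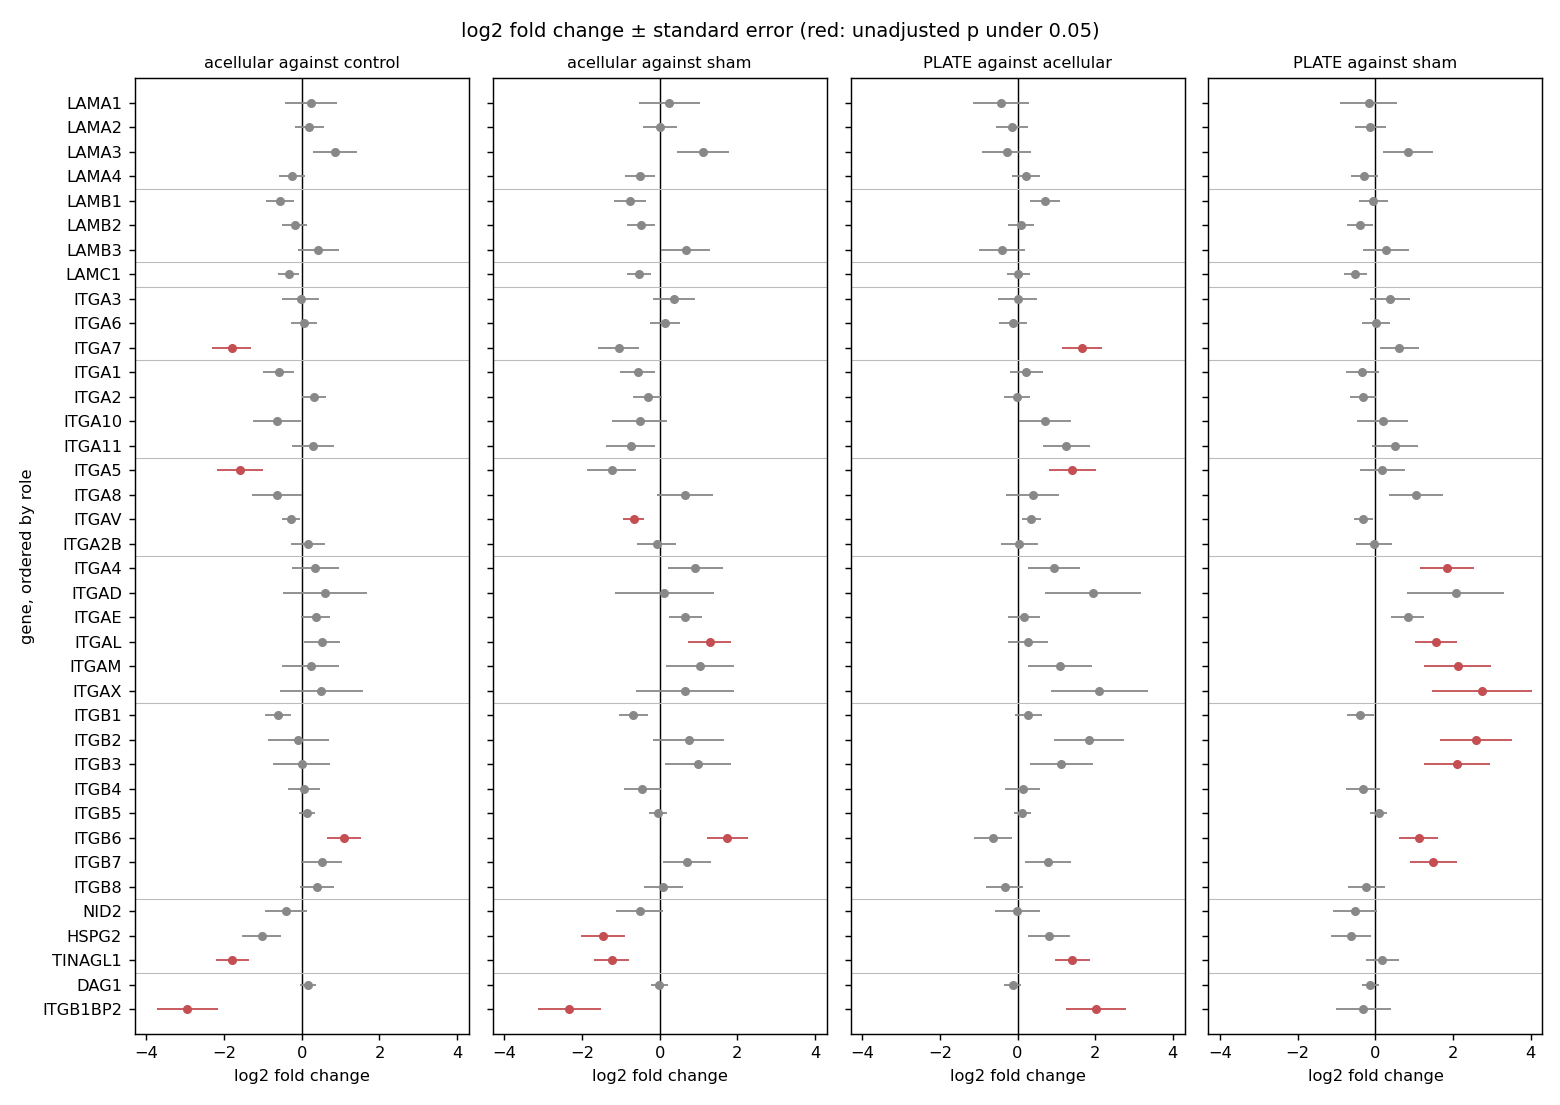
Log2 fold change with its standard error for each of the 38 genes (rows, ordered by role) in 4 pairs of groups, red where the unadjusted edgeR p was under 0.05. TINAGL1, ITGB1BP2 and ITGA5 lie left of 0 in both acellular panels and right of 0 in PLATE against acellular, while leukocyte integrins lie right of 0 in PLATE against sham.

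Among the 38 genes, leukocyte integrins had the largest fold changes of PLATE against control and against sham, and these rested on PLATE 1. ITGB2, the beta subunit shared by leukocyte integrins, was at 471, 30.1, 41.1 and 64.05 CPM in PLATE 1, 5, 9 and 13. Controls ran from 20.1 CPM over a median of 31.9 to 92.0 CPM, and sham was at 24.3, 38.8 and 12.6 CPM. PLATE 1 lay far above every other library, and the other 3 PLATE libraries lay within the control range. The log2 fold change against control was 1.76 ± 0.71 (edgeR adjusted p = 0.998), and 0.01 without PLATE 1.

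The alpha partners of ITGB2 repeated this. ITGAX, of dendritic cells and macrophages, was at 100.5 CPM in PLATE 1 and at 2.71, 3.19 and 7.18 CPM in PLATE 5, 9 and 13, against 1.37 to 9.96 CPM in the controls. ITGAD, which lies next to ITGAX in the RefSeq annotation, was at 26.8 CPM in PLATE 1 and at 1.14 to 1.38 CPM in the other PLATE libraries. Their log2 fold changes against control were 2.60 ± 0.99 and 2.54 ± 0.99, and each was -0.094 without PLATE 1. ITGAM, of neutrophils and macrophages, was at 89.9 CPM in PLATE 1 and at 11.4, 13.9 and 14.0 CPM in the others. ITGAD, ITGAX and ITGAM are similar in sequence and neighbours in the genome, so reads may be shared among them.

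Of the lymphocyte integrins, ITGAL, ITGA4 and ITGB7 were higher in every PLATE library than in every sham library. ITGAE and ITGB3 were too, which made 5 of the 38 (13.2%), against 7.91% of all genes. ITGAL was at 53.6, 22.3, 21.6 and 27.0 CPM in PLATE 1, 5, 9 and 13, all above the 3 sham libraries (9.76 to 11.4 CPM). Against sham its log2 fold change was 1.56 ± 0.54 (edgeR adjusted p = 0.657), and 1.17 without PLATE 1. ITGA4, the lymphocyte subunit that binds VCAM1 and MADCAM1, was at 81.6, 18.8, 11.1 and 28.3 CPM in PLATE, above sham (10.6, 11.1 and 7.37 CPM) in every library, PLATE 9 by a narrow margin (1.85 ± 0.69, and 1.01 without PLATE 1). ITGB7, its gut-homing partner, was at 30.8, 8.69, 5.65 and 12.2 CPM in PLATE and at 5.40, 5.32 and 4.65 CPM in sham. Every PLATE library lay above sham for ITGB7 as well (1.48 ± 0.61, and 0.79 without PLATE 1). Against control, leaving out PLATE 1 took ITGA4 from 1.29 to 0.44 and ITGB7 from 1.29 to 0.60. Against sham it took ITGB2 from 2.59 to 0.84 and ITGAM from 2.12 to 0.82, beside 1.01 for ITGA4 and 0.79 for ITGB7. In the RefSeq annotation ITGA4 overlaps CERKL.

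PLATE 1 also had the highest ITGB3, the beta subunit of platelet and vitronectin receptors, at 134.5 CPM. The other PLATE libraries were at 20.6, 25.3 and 22.9 CPM, and sham at 11.0, 18.9 and 5.56 CPM. ITGA2B, the platelet alpha partner of ITGB3, was at 5.69 CPM in PLATE 1, within the 2.09 to 8.97 CPM of all libraries. ITGA11, a collagen receptor subunit of fibroblasts, was at 53.1, 7.38, 22.1 and 15.7 CPM in PLATE and at 2.02 to 12.8 CPM in the controls. It had the smallest p of the 38 between PLATE and control (1.56 ± 0.49, edgeR adjusted p = 0.998), and stood at 0.86 without PLATE 1, the PLATE library with the most fibroblast marker RNA (50110 CPM). The part of fibroblast content was not tested. In the RefSeq annotation ITGA11 overlaps CALML4.

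The leukocyte content of PLATE 1 moved with these values. Summed over 11 leukocyte markers PLATE 1 held 10140 CPM and the other PLATE libraries at least 846.5 CPM, against 570 to 1794 CPM in control, 404 to 986 in sham and 571 to 2127 in acellular. None of the 11 markers was at 0 throughout a group. The part of leukocyte content in the integrin values was not tested.

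**Figure D4:**
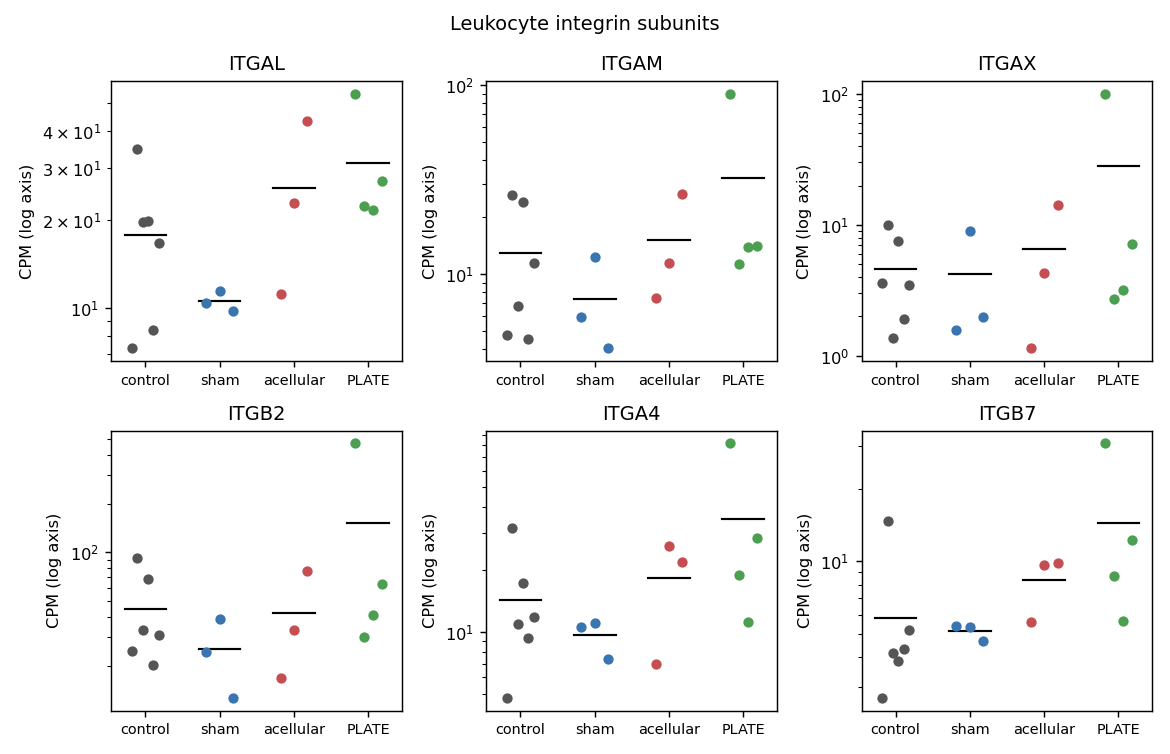
CPM on log axes for ITGAL, ITGAM, ITGAX, ITGB2, ITGA4 and ITGB7 by group, with 1 point per library and the group mean as a horizontal line. The highest point of every panel is PLATE 1 (30.8 CPM for ITGB7 to 471 CPM for ITGB2), and the other PLATE points lie within the control range.

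Between PLATE and control 6 of 38 genes had an unadjusted p under 0.05 in edgeR, all higher (ITGA11, ITGA4, ITGAD, ITGAX, ITGB2 and ITGB7), against 4.39% of all genes and 3.3% in that direction. The count was 0 of 38 without control 2 and PLATE 1 (1.72% of all genes), 10 of 38 without control 9 (11.7%) and 3 of 38 by voom (4.9%). Groups did not overlap for 0 of the 38, against 0.119% of all genes. Between PLATE and sham the count was 8, all higher, against 7.5% of all genes and 5.85% in that direction, and 3 (ITGAL, ITGB6 and LAMA3) without control 2 and PLATE 1 (3.67%). It was 1 (ITGAL) without sham 14 (3.48% of all genes), 3 without sham 11 (4.09%) and 3 without PLATE 1 (2.01%). Of the 8, ITGB6 had a log2 fold change of 1.11 against sham (edgeR adjusted p = 0.657), and 1.33 without PLATE 1. PLATE 1 was at 3.36 CPM for ITGB6 and the other PLATE libraries at 7.32 to 8.02 CPM. The part of epithelial content in this value was not tested. Here groups did not overlap for 6, or 15.8%, against 14.9% of all genes. Of the 6, 5 were higher, against 7.91% of all genes, and 1, ITGB1, was lower, against 6.95%. DESeq2 and voom called 0 of the 38 in either comparison, where DESeq2 called 0 and 0.129% of all genes and voom 0 and 0%. Medians over the 38 were 0.06 and 0.13, beside -0.01 and 0.03 over all genes. Leukocyte alpha subunits were higher in 6 of 6 in both, where 47.7 and 52.6% of all genes were higher. Their medians were 1.30 against control and 1.96 against sham. Without control 2 and PLATE 1 these medians were -0.04 (3 of 6 higher) and 0.68 (5 of 6 higher).

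Sham against control gave the fewest small p-values of the 6 pairs. None of the 38 had an unadjusted p under 0.05 in edgeR, against 2.98% of all genes, and DESeq2 and voom called 0 of the 38 and 0% of all genes. Without control 2 and PLATE 1 the count was 4 (HSPG2, ITGA8, ITGAL and ITGAV), with 7.7% of all genes. ITGA2, a collagen receptor subunit of epithelium and platelets, was at 19.2, 22.6 and 52.4 CPM in sham 11, 12 and 14 against 12.6 to 32.1 CPM in the controls. Its log2 fold change of 0.63 ± 0.31 was 0.04 without sham 14. ITGA11 was at 15.3, 16.0 and 20.4 CPM in sham, above all 6 controls (1.05 ± 0.53, edgeR adjusted p = 0.963), the 1 gene of the 38 whose groups did not overlap, against 3.69% of all genes. ITGA8, a receptor subunit for nephronectin in smooth muscle and mesenchyme, was at 30.5, 36.8 and 23.5 CPM in sham and at 33.1 to 187 CPM in the controls (-1.29 ± 0.67, and -0.75 without control 29, the highest control). The median over the 38 was -0.05, beside -0.06 over all genes.

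With the 3 operated groups averaged against control, 4 of 38 genes had an unadjusted p under 0.05 in edgeR (TINAGL1 at -0.90, ITGB1BP2 at -1.50, ITGA7 at -0.90 and ITGA11 at 0.97), against 3.88% of all genes. The count was 8 without control 9 (9.63% of all genes), 7 without control 2, control 9 and PLATE 1 (9.44%) and 1, TINAGL1, by voom (7.4%). The adjusted p was 0.9995 in edgeR for each. Groups did not overlap for 0 of the 38, against 0.00914% of all genes. DESeq2 and voom called 0 of the 38, and 0.00921 and 0% of all genes. Without control 24 the value of ITGA7 was -0.56.

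Some integrin and linker genes varied little across all 16 libraries. DAG1, dystroglycan, spanned 129 CPM in PLATE 1 to 278 CPM in PLATE 9, a 2.15-fold range. ITGB5, a vitronectin receptor subunit of many cells, spanned a 1.98-fold range (72.5 to 144 CPM). At the other end ITGAD spanned a 217-fold range and ITGAX an 88.15-fold one. In the lowest library, sham 14, ITGAD rested on 3 counts. ITGA3 and ITGA6, the epithelial laminin receptor subunits, had group means of 35.3 to 46.5 and 52.8 to 58.01 CPM, and both were lowest in PLATE 1 (14.9 CPM for ITGA3). ITGB4, the hemidesmosome partner of ITGA6, ranged from 9.00 CPM in control 2 to 66.8 CPM in control 9. ITGA1, a collagen receptor subunit of smooth muscle, was highest in control 24 (77.7 CPM) and at 22.5 to 26.04 CPM in acellular.

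The last 4 genes fill in the linkers, the collagen and leukocyte alphas and the betas. NID2, a nidogen that bridges laminin and collagen IV, ranged from 33.7 CPM in control 9 to 289 CPM in control 2, with group means of 111.3 to 159.7 CPM. ITGA10, a cartilage collagen receptor subunit, stayed at 0.336 to 5.02 CPM. ITGAE, the subunit with which intraepithelial lymphocytes bind epithelial cadherin, was at 26.1, 15.9, 12.2 and 14.8 CPM in PLATE, above the sham libraries (8.80, 9.67 and 10.7 CPM). In the RefSeq annotation ITGAE overlaps HASPIN, ITGA1 overlaps PELO and LAMB3 overlaps C13H1orf74. ITGB8, which binds latent TGF-beta with alpha V, ranged from 13.9 CPM in PLATE 1 to 64.2 CPM in control 9.

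Subunits that assemble with each other were compared across the 16 libraries as log2 CPM. Beside them stood NID2 with LAMC1, a linker and a laminin chain, and ITGA7 with ITGB1BP2, a subunit and a cell-side linker. Of 26 listed pairs 21 had both genes in the tested set. Of these, 14 passed an adjusted p of 0.05 in a two-sided permutation test of Pearson's r (100000 resamples, Benjamini-Hochberg over 21 pairs). The pairs share libraries and often a subunit, so they are not independent. Libraries were permuted without regard to group. How many other pairs of genes pass the same test was not computed, so 14 of 21 has no background to be set against. The part of cell content in these relations was not tested. Without the 2 libraries farthest from the median of the first gene, 9 pairs passed. Without control 2, control 9 and PLATE 1 the number was 12, and with Spearman's rho in all 16 libraries it was 15.

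ITGAM with ITGB2 gave r = 0.95 and rho = 0.95 (permutation p = 1e-05 for each, the smallest that 100000 resamples can give; adjusted p = 0.000105 and 0.00021), and r = 0.897 without PLATE 1 and sham 14. ITGA4 with ITGB7 gave r = 0.924 (permutation p = 1e-05, adjusted 0.000105) and rho = 0.779 (permutation p = 0.00065, adjusted 0.00273), and r = 0.832 without PLATE 1 and control 9. Both pairs passed again without those libraries (adjusted permutation p = 0.00021 and 0.00196). LAMB2 with LAMC1, the chains of adult muscle and vessel laminins, gave r = 0.875 (permutation p = 6e-05, adjusted 0.000252) and rho = 0.815 (permutation p = 0.00023, adjusted 0.00121), and r = 0.661 without PLATE 1 and sham 11.

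The epithelial pair LAMA3 and LAMB3 gave r = 0.86 (permutation p = 0.0001, adjusted 0.0003) and rho = 0.738 (permutation p = 0.00168, adjusted 0.00588). Without acellular 10 and control 2 r was 0.64 (adjusted permutation p = 0.0336). ITGA6 with ITGB4 gave r = 0.631 (permutation p = 0.00881, adjusted 0.0185) and rho = 0.535 (permutation p = 0.0346, adjusted 0.0484). This relation rested on PLATE 1 and control 2, since r was 0.257 without them (adjusted permutation p = 0.437). ITGA7 with ITGB1BP2 gave r = 0.694 (permutation p = 0.00267, adjusted 0.00701) and rho = 0.656 (permutation p = 0.00699, adjusted 0.0124), and r = 0.722 without acellular 6 and control 24.

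For ITGAV no relation with a beta partner passed: r was 0.02 with ITGB5, -0.30 with ITGB6 and 0.13 with ITGB8 (adjusted permutation p = 0.941, 0.34 and 0.703). ITGA2B with ITGB3 gave r = -0.03 (adjusted permutation p = 0.941) and ITGA8 with ITGB1 r = 0.16 (adjusted permutation p = 0.638).

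**Figure D5:**
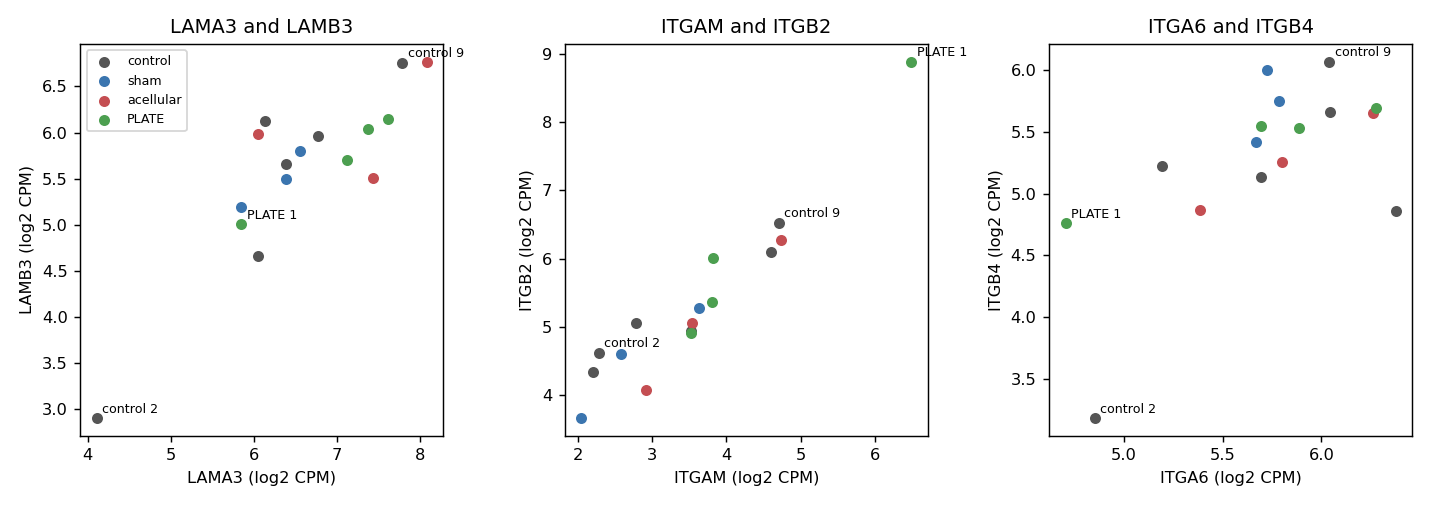
Log2 CPM of 3 pairs of partner subunits, 1 point per library coloured by group, with control 2, control 9 and PLATE 1 named. ITGAM and ITGB2 lie along a line with PLATE 1 at its top end (r = 0.95), LAMA3 and LAMB3 have control 2 at the bottom end (r = 0.86), and ITGA6 and ITGB4 scatter apart from control 2 and PLATE 1 (r = 0.631).

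The surrounding pathway was read from 4 further lists, of which edgeR called 0 genes in every comparison. Over all genes 54.2% were lower in acellular than in control (4.22% with an unadjusted p under 0.05), 52.4% were higher in PLATE than in acellular, and 47.7% were higher in PLATE than in control (3.3% with an unadjusted p under 0.05). The smooth muscle and fibroblast sums, whose acellular ranges are given above, were not tested for their part in these lists. Among 20 basement membrane collagens and partners, 12 were lower in acellular than in control, 3 of them with an unadjusted p under 0.05 (4.22% of all genes). Their median log2 fold change was -0.17, beside -0.03 over all genes. COL4A1, a chain of the collagen IV network, averaged 278 ± 14.8 CPM in acellular, 725 ± 407 in control, 672 ± 256 in sham and 708 ± 165 in PLATE. Its log2 fold change was -1.38 ± 0.43 against control, -1.27 ± 0.47 against sham, and 1.35 ± 0.45 for PLATE against acellular (edgeR adjusted p = 0.827, 0.902 and 0.875), with no overlap with sham or PLATE. COL4A2, its partner chain, averaged 185 ± 39.2 CPM in acellular, 362 ± 184 in control and 362 ± 96.3 in PLATE.

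Of 26 genes of the integrin adhesome, the proteins that couple integrins to actin, 22 were lower in acellular than in control (7 with an unadjusted p under 0.05, beside 4.22% of all genes) and 22 were higher in PLATE than in acellular (0). The medians were -0.37, beside -0.03 over all genes, and 0.34, beside 0.02. CSRP1, a LIM domain protein of the cytoskeleton, averaged 594 ± 60.8 CPM in acellular against 2185 ± 1606 in control (-1.88 ± 0.55). LIMS2, which binds integrin-linked kinase, averaged 80.6 ± 4.61 against 195 ± 139.7 CPM (-1.28 ± 0.50). FLNC, the muscle filamin, averaged 262 ± 44.1 CPM in acellular and 697 ± 147 in sham, without overlap (-1.41 ± 0.55). Between PLATE and acellular the smallest p of this list belonged to ACTN1, an actin crosslinker (0.82 ± 0.42).

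Of 16 genes of the dystrophin and dystroglycan complex 14 were lower in acellular than in control, 4 with an unadjusted p under 0.05 (4.22% of all genes), at a median of -0.46, beside -0.03 over all genes. CAV3, the muscle caveolin, averaged 2.32 ± 0.48 against 15.4 ± 15.1 CPM (-2.73 ± 0.88), and POMGNT1, a glycosyltransferase for dystroglycan, 56.8 ± 1.72 against 81.9 ± 19.1 CPM (-0.53 ± 0.20). DAG1 itself was at 0.16 ± 0.20 in the same comparison.

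Of 20 integrin ligands outside the basement membrane, 12 were lower in acellular than in control (1 with an unadjusted p under 0.05, beside 4.22% of all genes) and 15 were higher in PLATE than in control (4, beside 3.3%). Without PLATE 1 the latter were 11 and 0, and PLATE 1 held the highest sum of this list among the PLATE libraries (15080 CPM, the others 6601 to 7893). The medians were -0.07, beside -0.03 over all genes, and 0.40, beside -0.01. FN1, fibronectin, averaged 2128 ± 755 CPM in acellular and 5202 ± 3331 in control (-1.29 ± 0.52). TNN, tenascin W, and THBS2, thrombospondin 2, had the smallest p between PLATE and control, at 9.25 ± 12.7 against 2.22 ± 0.77 CPM (2.05 ± 0.61) and 51.1 ± 74.3 against 10.0 ± 9.79 CPM (2.34 ± 0.76). Between PLATE and acellular the smallest p was that of VTN, vitronectin, at 17.6 ± 24.6 against 0.375 ± 0.286 CPM (5.56 ± 1.86). The acellular level of VTN was near the floor, so its fold change rests on few reads on that side. For TNN, THBS2 and VTN the SD of PLATE exceeded its mean, and without PLATE 1 the values were 0.39, 0.47 and 3.92. EMILIN1, an elastic fibre glycoprotein, averaged 29.5 ± 4.70 CPM in acellular and 73.9 ± 19.0 in sham, without overlap.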

How the data were processed

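Stranded poly(A) libraries were sequenced by the authors, per the labels' protocols. FastQC, HISAT2 2.2.1 and featureCounts are named in the submitters' processing notes. The genome build, annotation and strand setting are not given in the sources used here. The deposited table holds the authors' raw counts for each gene symbol as whole numbers. A pooled line of reads without a gene symbol (22.9 to 28.5% of a library) was left out of library sizes and tests. The trailing index of a column name gave its sample, since another number in the descriptions did not match.

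Counts were filtered with filterByExpr (minimum count 10), TMM-scaled and fitted in edgeR 4.0.16 (R 4.3.3) with a mean per group over all 16 libraries and 12 residual degrees of freedom. P-values were adjusted by Benjamini-Hochberg over 10942 genes. Log2 CPM used a prior count of 2. Standard errors come from the F statistic. Common biological variation was 0.44. Animal numbers differ within each group, so replicates were taken as separate animals. Partner correlations used scipy 1.17.1. The fit was also run on simulated counts with known changes. The share of changes it recovered is not given here, so no statement on power is made. All 38 symbols matched the RefSeq table of mOryCun1.1, used for names and neighbours only.

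The genes, lists and pairs were chosen with earlier results of these data known. Named with the value of every library were genes past the threshold (none), the 3 with the smallest p in each pair of groups, and those called by DESeq2 1.42.0 or limma 3.58.1 voom. From each pathway list up to 2 genes with the smallest p were eligible to be named. Some further genes were named by role or for their range after their values were seen. Alternatives tried were size factors of DESeq2, no low-count filter, the DESeq2 test, voom with quality weights, only the groups compared in the fit, control 2 and PLATE 1 left out, and each library left out in turn. DESeq2 filtering set for 0.05 and control 2, control 9 and PLATE 1 left out together were chosen after seeing the data.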

Additional observations from a re-analysis of the deposited data

Results flagged for a closer look

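In groups of 4 to 10 libraries, 7 of 76 gene and group combinations had 1 library far from the others of its group on the log2 scale. For independent, normally distributed values the rule would flag about 1 in 20. The share over all genes tested was not computed, so 7 of 76 has no background to be set against. Over all genes tested, Spearman correlations of PLATE 1 with the other PLATE libraries were 0.858 to 0.881. Among those other libraries they were 0.976 to 0.984. PLATE 1 was the flagged library for 6 of the 7. It was high for ITGAD (26.8 CPM, the other PLATE libraries at 1.14 to 1.38), ITGAM (89.9 CPM, others 11.4 to 14.0) and ITGB3 (134 CPM, others 20.6 to 25.3). It was low for the epithelial integrin subunits ITGB4 (27.0 CPM, others 46.2 to 51.6) and ITGB6 (3.36 CPM, others 7.32 to 8.02) and for ITGB8 (13.9 CPM, others 42.0 to 47.9). The seventh was ITGA10 in control 24 (5.02 CPM, the other controls at 1.14 to 1.63). PLATE 1 also held the least columnar epithelium marker RNA of the PLATE libraries (271 CPM, the highest PLATE library at 1081 CPM). The part of epithelial and leukocyte content in these values was not tested.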

How the results depend on the processing

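With edgeR, 0 of the 38 genes and 0 of all genes were called in every comparison under each alternative run, each library left out in turn included (range 0 to 0). DESeq2 called 2 of the 38 between acellular and control (ITGB1BP2 at -2.93 and TINAGL1 at -1.76) among 10 genes in all, and voom called 1 between acellular and sham (ITGB6 at 1.58) among 72. DESeq2 also called 14 genes in PLATE against sham and 1 each in acellular against sham, PLATE against acellular, operated against control and the joint test. With its filtering set for 0.05 it called 17 genes in acellular against control, 14 in PLATE against sham and 1 each in the other 4. Over the 23 of 24 alternatives that gave an adjusted p, it ran from 0.0307 to 0.9996 for TINAGL1 and from 0.0208 to 0.9996 for ITGB1BP2 (acellular against control), each with 1 alternative past the threshold; DESeq2 filtering set for 0.05 gave neither gene an adjusted p. For ITGB6 (acellular against sham) it ran from 0.0495 to 1 over 24. The cause of these differences was not tested.

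Against control, ITGAD and ITGAX in PLATE changed sign without PLATE 1 (-0.094 each; with 1 library left out the highest values were 2.98 and 2.99) and without control 2 and PLATE 1 (-0.21 and -0.16), as did ITGB2 in the latter (-0.12). Partner pairs past the threshold numbered 9 in place of 14 without the 2 farthest libraries, where r was -0.26 for ITGAV with ITGB5 and -0.46 for ITGAV with ITGB8. Without control 2, control 9 and PLATE 1 the number was 12, and r was -0.11 for ITGA8 with ITGB1. There LAMB1 with LAMC1 (0.74, from 0.27) and NID2 with LAMC1 (0.70, from 0.47) passed as well. ITGA1 with ITGB1, ITGA6 with ITGB4, LAMA2 with LAMC1 and LAMA4 with LAMC1 no longer did. The median of the 38 between acellular and control was -0.20 without acellular 10, and between acellular and sham -0.21. No paired analysis was possible because the groups share only animal number 9, in control and PLATE. Groups hold 3 to 6 libraries, and the lowest count of any of the 38 in a library was 3 (ITGAD in sham 14), so differences of genes at low counts may not be detectable at this depth.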
